A study of Mus musculus with 24 samples.

Results

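The genes of the proteasome were followed across mouse cerebellum lacking Derlin-1 or Derlin-2. Members were all genes whose symbol reads Psma, Psmb, Psmc, Psmd, Psme, Psmf or Psmg followed by a number, except Psmb8 and Psmb9, with the symbol taken from the transcript each probe was designed for. The reference gene table held 46 such genes. A probe was found for 45 of them, and all 45 passed the detection filter and were tested among 16935 genes, each through its brightest probe. Psme2 was the gene without a matched probe and was not analysed here. The members comprised 7 subunits of the alpha ring (Psma1 to Psma7), 4 structural and 3 constitutive catalytic subunits of the beta ring, the inducible catalytic subunit Psmb10, the testis and thymus variants Psma8 and Psmb11, 6 ATPases, 3 non-ATPase base subunits, 8 lid subunits, 3 base assembly chaperones, 3 activators, the inhibitor Psmf1 and 4 core assembly chaperones.

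The 26S proteasome is the main protease for ubiquitin-tagged proteins in the cytosol and nucleus. Its barrel-shaped core particle holds the proteolytic sites inside stacked alpha and beta rings, and the regulatory particle at its ends binds ubiquitin, unfolds the substrate with a ring of ATPases and removes the ubiquitin chain. Misfolded proteins of the endoplasmic reticulum (ER) reach it through ER-associated degradation, in which the Derlins are thought to take part in moving the substrate out of the ER before the ATPase VCP extracts it. When proteasome capacity falls short, the ER-anchored transcription factor NRF1, encoded by Nfe2l1, is known to raise most subunit genes together, while interferon replaces catalytic subunits by inducible ones.

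Total RNA of cerebella from C57BL/6 mice aged 28 days was hybridised to 24 single-colour arrays in 12 groups of 2. Controls were described as homozygous for floxed Derl1 or floxed Derl2, with no Cre mentioned. Knockouts (KO) carried the same floxed alleles with Cre recombinase under the nestin promoter, which acts in neural precursors and so reaches neurons and most glia but not microglia. Mice of the numbered Derlin-1 series and of the Derlin-2 line were given water (vehicle) or 200 mg/kg 4-phenylbutyrate (4PBA), a chemical chaperone, into the peritoneum each day from day 14 to day 28 of age. In a second, lettered Derlin-1 series, the arrays not labelled 4PBA named no vehicle and are called untreated, and the protocol text is the same. Comparisons of the Derlin-1 line were averaged over both series. The labels did not say whether the 2 arrays of a group came from different animals, so p-values measure the spread between arrays, which may be technical.

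Levels are log2 signals relative to the array's 75th percentile, and a change is a difference of mean levels on the log2 scale with its standard error (SE, n = 2 arrays per group). The share of spots well above background ranged from 57.7% to 68.4% over the arrays. Each series lay on a slide of its own and groups took fixed places on it, so slide position and group cannot be told apart. Markers of granule neurons, Purkinje cells, astrocytes and Bergmann glia, oligodendrocytes, endothelium, choroid plexus and microglia were well above background on all arrays. The mean level of the 3 choroid plexus markers ranged from -2.36 to 3.74 between arrays. In Derlin-1 KO without 4PBA, 8 of 10 microglial markers and 11 of 12 interferon response genes were called higher, and 4 of 9 granule neuron markers were called lower. Of 7 markers of astrocytes and Bergmann glia 1 was called higher, and of 7 Purkinje cell, 6 oligodendrocyte, 4 endothelial and 3 choroid plexus markers none was called, by limma. In bulk RNA, fewer cells of a type and less RNA per cell cannot be told apart. Derl1 itself lay between 0.14 and 0.94 on Derlin-1 KO arrays and between 0.76 and 1.22 on their controls, and where its probe lies relative to the deleted part was not known, so it did not check the labels. Derl2 lay between 0.18 and 0.48 on Derlin-2 KO arrays and between 1.40 and 1.58 on their controls, except that the array labelled Derlin-2 KO vehicle 1 stood at 1.72. Derl3 went the other way there: at -1.85 that array lay within the range of the other Derlin-2 KO arrays (-1.96 to -0.61) and apart from their controls (-3.03 to -2.75). Derl3, a homologue that lay between -0.63 and 0.37 on the other Derlin-1 KO arrays, was at -2.27 on lettered array b of the KO labelled 4PBA, within the range of the controls (-3.14 to -1.69). For comparisons that use these arrays, the members' medians and counts and the members with the smallest p are given with and without them.

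Proteasome transcripts were readily detected in these cerebella. Of the 45 members 44 were well above background on every array. Their residual SD within groups had a median of 0.11 over the 44 (range 0.06 to 0.24), against a median of 0.14 over the 14266 genes detected on all arrays. The distance between a gene's lowest and highest array had a median of 0.69 over the 44 members and 0.86 over the 14266 genes. The exception to detection was Psmb11, the catalytic subunit of the thymus, which was well above background on 3 of 24 arrays and is described separately.

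In Derlin-1 KO without 4PBA, no proteasome gene passed the test (0 of 45 by limma, adjusted p under 0.05), while 10.6% of all genes tested were called. At an unadjusted p under 0.05 there were 8 members (17.8%), against 26.7% of all genes, and the smallest adjusted p was 0.0533, that of the dim Psmb11. The 95% intervals of 44 of the 45 members lay within a 1.5-fold change in either direction, all but that of Psmb11. The members' differences were nevertheless not spread evenly around 0. Of the 45, 32 lay below 0 (71.1%, against 51.2% of all genes), with a median of -0.08, against -0.01 for all genes. All 14 constitutive core particle subunits lay below 0 (median -0.13), as did 14 of the 17 regulatory particle subunits (median -0.05). Psmb10 and Psmf1 lay above it, and the 3 activators lay between 0.00 and 0.22, with a median of -0.01 in the numbered series. Because no member passed, none of these values is a call, and their sizes are given with intervals.

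**Figure D1:**
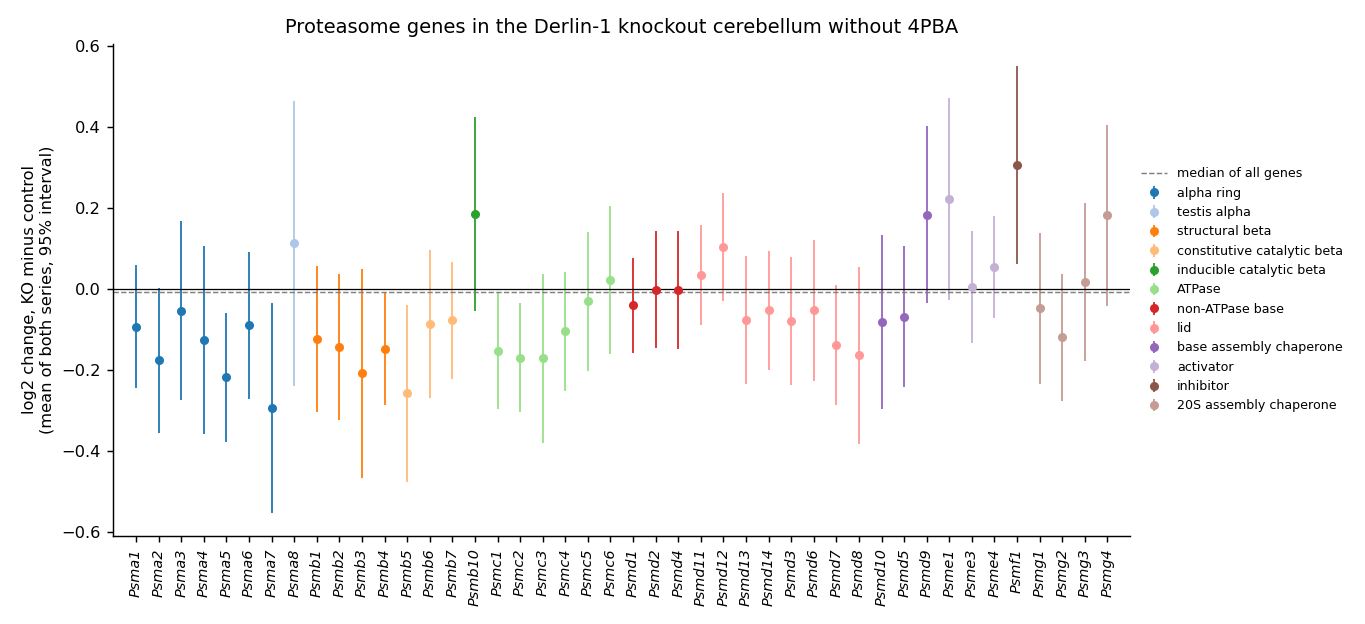
Log2 change (KO minus control, mean of both Derlin-1 series) of 44 proteasome genes without 4PBA, ordered and coloured by role, with 95% intervals. The dashed line is the median of all genes (-0.01). The 14 constitutive core subunits at the left, from Psma1 to Psma7 and Psmb1 to Psmb7, lie below 0, and Psmf1 has the highest value (0.31). Psmb11, not above background on most arrays, is left out.

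The alpha ring forms the gate of the core particle. Its 7 subunits ranged from -0.29 (Psma7) to -0.05 (Psma3), with 2 at an unadjusted p under 0.05. For Psma7 the numbered control arrays stood at 4.60 and 4.60, the numbered KO arrays at 4.42 and 4.39, the lettered control arrays at 4.69 and 4.21, and the lettered KO arrays at 4.00 and 4.10. Every KO array thus lay under both controls of its series, with a change of -0.29 (SE 0.12, adjusted p = 0.133). Psma5 stood at 3.57 and 3.59 in numbered controls, 3.54 and 3.44 in numbered KO, 3.33 and 3.17 in lettered controls, and 2.76 and 3.06 in lettered KO. Here too the groups did not overlap, with a change of -0.22 (SE 0.07, adjusted p = 0.0756). Single lettered arrays moved both values. Psma7 was called without control b (-0.42, adjusted p = 0.0473) and lay at -0.17 without control a (adjusted p = 0.419). Psma5 was called without KO b (-0.29, adjusted p = 0.0168) and lay at -0.14 without KO a (adjusted p = 0.297). The 4 structural beta subunits, which frame the ring without cutting, ranged from -0.21 (Psmb3) to -0.12 (Psmb1).

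The constitutive catalytic subunits cut after different residues: Psmb5 carries the chymotrypsin-like, Psmb6 the caspase-like and Psmb7 the trypsin-like site. Psmb5 stood at 2.97 and 3.14 in numbered controls, 2.95 and 2.91 in numbered KO, 3.84 and 3.46 in lettered controls, and 3.17 and 3.35 in lettered KO. Its KO arrays lay under both controls of their series, with changes of -0.13 (numbered) and -0.39 (lettered), for a mean change of -0.26 (SE 0.10, 95% interval -0.48 to -0.04, adjusted p = 0.121). Without lettered control a it lay at -0.16 (adjusted p = 0.378). Psmb6 stood at 5.31 and 5.18 in numbered controls, 5.27 and 5.21 in numbered KO, 5.30 and 4.99 in lettered controls, and 4.93 and 5.01 in lettered KO. Its groups overlapped in both series (change -0.09, interval -0.27 to 0.10). Psmb7 stood at 2.84 and 2.90 in numbered controls, 2.79 and 2.87 in numbered KO, 3.19 and 3.12 in lettered controls, and 2.98 and 3.10 in lettered KO, a change of -0.08 (interval -0.22 to 0.07). Of these sites only that of Psmb5 lay at an unadjusted p under 0.05, and whether the subunits differ from each other was not tested.

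NRF1 and its relative NRF2 bind the antioxidant response element (ARE), whose core letters TGACNNNGC were searched on both strands of the 250 bases before each gene's start in RefSeq promoter windows of the build GRCm38.p6. Windows were found for 38 of the 46 members, and 5 held the letters (Psmb5, Psmb6, Psmc6, Psmd9 and Psmd12), a share of 13.2%, against 11.5% of 27025 genes. Matches therefore stood at about the share of the whole table. The 3 members whose match lay within 150 bases of the start are shown because 2 encode catalytic subunits, and because Nfe2l1 itself was called in these arrays. Each run gives the last 150 bases before the start, 5′ to 3′ on the gene's strand, with the match in capitals.
Psmb5 (chr14:54617996-54618145, minus strand): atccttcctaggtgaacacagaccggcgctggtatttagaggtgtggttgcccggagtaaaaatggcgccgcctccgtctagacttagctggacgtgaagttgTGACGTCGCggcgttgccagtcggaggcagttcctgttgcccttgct
Psmb6 (chr11:70525207-70525356, plus strand): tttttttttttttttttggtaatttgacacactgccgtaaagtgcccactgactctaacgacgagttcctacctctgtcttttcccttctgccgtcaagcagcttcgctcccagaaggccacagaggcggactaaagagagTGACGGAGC
Psmd9 (chr5:123228040-123228189, plus strand): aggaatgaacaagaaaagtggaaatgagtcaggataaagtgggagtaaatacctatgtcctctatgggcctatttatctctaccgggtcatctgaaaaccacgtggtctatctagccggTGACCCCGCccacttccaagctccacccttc

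The match began at position -47 from the start in Psmb5, -9 in Psmb6 and -31 in Psmd9. These 3 genes did not share a side of 0 in Derlin-1 KO without 4PBA: Psmb5 and Psmb6 lay at -0.26 and -0.09, and Psmd9, a chaperone of base assembly, lay at 0.18 (SE 0.10, adjusted p = 0.269). Psmd9 was 0.10 without lettered control b and 0.26 without lettered control a. The CCAAT box (CCAAT) was found in 13 members (34.2%, against 37.5% of genes). The core of the interferon-stimulated response element (GAAANNGAA) was found in 3, Psmb3, Psmd4 and Psmd9 (7.89%, against 8.18%), and the gamma-activated site (TTCNNNGAA) in 1, Psmg1 (2.63%, against 8.13%). A match is a run of letters and not a measured binding site.

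The 6 ATPases of the base, which unfold the substrate, lay between -0.17 (Psmc3) and 0.02 (Psmc6), 5 of them below 0. Psmc2 stood at 4.42 and 4.44 in numbered controls, 4.37 and 4.28 in numbered KO, 3.96 and 3.82 in lettered controls, and 3.57 and 3.74 in lettered KO. These groups did not overlap, with a change of -0.17 (SE 0.06, adjusted p = 0.0985), which was called without lettered KO b (-0.21, adjusted p = 0.0453) and lay at -0.13 without KO a (adjusted p = 0.324). The non-ATPase base subunits, which include the scaffolds Psmd1 and Psmd2 and the ubiquitin receptor Psmd4, lay at -0.04, -0.00 and -0.00, with intervals no wider than -0.16 to 0.14. The 8 lid subunits, among them the deubiquitinase Psmd14, ranged from -0.16 (Psmd8) to 0.10 (Psmd12). Psmd12, named after its values were seen, was the only member whose KO arrays lay above both controls in each series. It stood at 3.31 and 3.25 in numbered controls, 3.42 and 3.34 in numbered KO, 3.45 and 3.42 in lettered controls, and 3.55 and 3.54 in lettered KO, a change of 0.10 (SE 0.06, adjusted p = 0.312).

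Counted over all members, the KO arrays lay under both controls in each series for 11 (24.4%): Psma2, Psma5, Psma7, Psmb2, Psmb3, Psmb4, Psmb5, Psmc1, Psmc2, Psmc4 and Psmd7. Of all genes 12.4% did so. The KO arrays lay over both controls in each series for 1 member (2.22%), against 11.4% of all genes. By this count 7 of the 11 encode core particle subunits and none an activator, inhibitor or chaperone. The share among genes of like brightness was not counted, and the shift went with brightness, as described below. Psma5, Psma7, Psmc1, Psmc2 and Psmb4 were likewise named after their values were seen, for an unadjusted p under 0.05, and Psmc1 (-0.15, SE 0.07) and Psmb4 (-0.15, SE 0.07) had adjusted p-values of 0.163 and 0.164.

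Psmb10 replaces Psmb7 in the immunoproteasome, the form of the core particle that interferon induces. It stood at 3.08 and 3.07 in numbered controls, 3.36 and 3.28 in numbered KO, 3.09 and 2.69 in lettered controls, and 3.07 and 2.96 in lettered KO. The numbered groups were apart and the lettered ones overlapped, for a change of 0.18 (SE 0.11, interval -0.06 to 0.42, adjusted p = 0.315). It was 0.08 without lettered control b (adjusted p = 0.671) and 0.28 without control a (adjusted p = 0.159). Its companion inducible subunits, which are no members, stood further from 0: Psmb8 was called higher (1.14, SE 0.25, adjusted p = 0.0132, or 0.94 and 0.0707 without lettered KO a), and Psmb9 was not (0.64, SE 0.23, adjusted p = 0.0864). The interferon response genes had mean levels from -1.96 to -1.76 on these controls and from -0.79 to 0.12 on these KO arrays, and the microglial markers from -0.29 to 0.11 and from 0.84 to 1.24. Their part in the value of Psmb10 was not tested.

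Activators cap the core particle in place of the regulatory particle. Psme1, a subunit of the interferon-inducible 11S cap, stood at 1.21 and 1.36 in numbered controls, 1.43 and 1.58 in numbered KO, 2.09 and 1.77 in lettered controls, and 2.39 and 1.91 in lettered KO. The numbered groups did not overlap and the lettered ones did, with like changes in both (0.22 and 0.22) and a mean of 0.22 (SE 0.12, adjusted p = 0.239). The mean was 0.10 without lettered KO a (adjusted p = 0.681) and 0.34 without KO b (adjusted p = 0.0534). That cap also contains Psme2, for which only probes of the near-identical copy Psme2b were present. The brighter of these stood at 0.18 (SE 0.09, adjusted p = 0.201), and signal from both genes may reach it. Psme3, the nuclear cap, stood at 0.09 and 0.17 in numbered controls, 0.04 and 0.09 in numbered KO, -0.61 and -0.69 in lettered controls, and -0.50 and -0.66 in lettered KO (change 0.00, interval -0.13 to 0.14). Psme4, the large single-chain cap, stood at 2.09 and 2.06, 2.08 and 2.07, 2.22 and 2.32, and 2.38 and 2.40 in the same order, a change of 0.05 (interval -0.07 to 0.18).

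Psmf1, known as an inhibitor of the core particle in vitro, had the highest value of the members detected on all arrays. It stood at 0.66 and 0.81 in numbered controls, 0.88 and 1.07 in numbered KO, 0.83 and 0.70 in lettered controls, and 1.46 and 0.81 in lettered KO. The lettered KO arrays themselves stood far apart, and the change of 0.31 (SE 0.11, interval 0.06 to 0.55) had an adjusted p of 0.0999. It was called with the replicate number or letter as a block (adjusted p = 0.0290) and without lettered KO array b (change 0.47, adjusted p = 0.00457), settings in which 12.9% and 16.5% of all genes were called. Without lettered KO array a the change was 0.14 (adjusted p = 0.389). A second, dimmer probe of the same transcript gave 0.03 (SE 0.16). Psmf1 was the exception here: in the other 17 members with several probes, these lay within 0.08 of each other, and no member probe of 68 was called, against 5.09% of all probes.

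**Figure D2:**
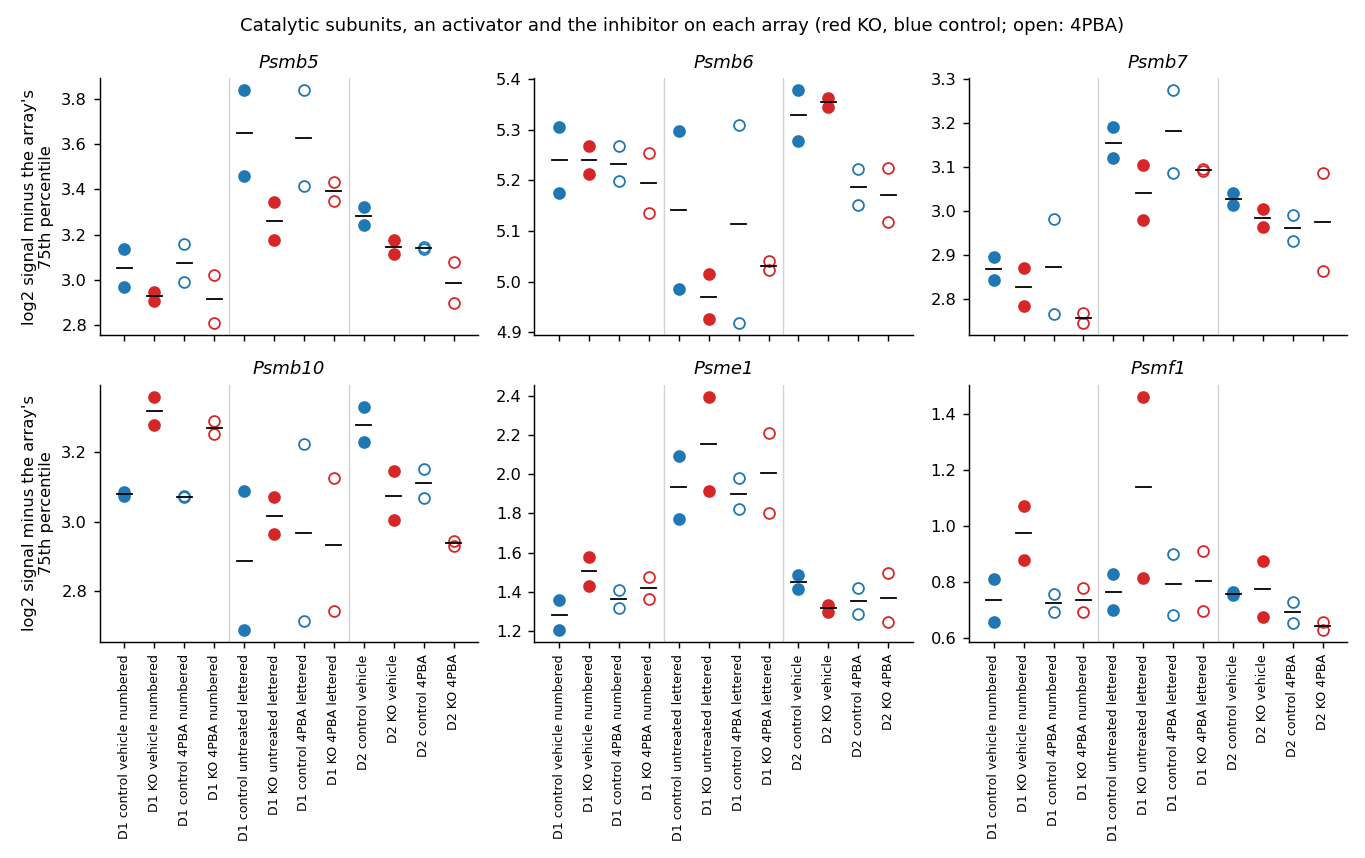
Level (log2 signal minus the array's 75th percentile) of the 3 constitutive catalytic subunits, the inducible subunit Psmb10, the activator Psme1 and the inhibitor Psmf1 on each of the 24 arrays, with red for KO, blue for control, open circles for 4PBA and a bar at the mean of 2 arrays. Grey lines part the numbered Derlin-1, lettered Derlin-1 and Derlin-2 slides, and the vertical scale differs between panels. The lettered untreated control arrays of Psmb5 stand at 3.84 and 3.46, and one lettered KO array of Psmf1 stands at 1.46, above all others.

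The chaperones Psmg1 to Psmg4 build the core particle and are not part of the finished enzyme. Psmg1 stood at 2.65 and 2.70 in numbered controls, 2.80 and 2.62 in numbered KO, 2.47 and 2.07 in lettered controls, and 2.06 and 2.22 in lettered KO (change -0.05, interval -0.24 to 0.14). Its partner Psmg2 stood at 2.13 and 2.03, 2.12 and 2.06, 1.59 and 1.33, and 1.13 and 1.29 in the same order (change -0.12, interval -0.28 to 0.04). Both overlapped between genotypes in the numbered series. Psmg3 stood at 0.66 and 0.81, 0.85 and 0.90, 1.19 and 0.88, and 0.83 and 1.03 (change 0.02, interval -0.18 to 0.21). Psmg4 stood at -0.38 and -0.36, 0.03 and -0.22, -0.21 and -0.37, and -0.13 and -0.27 (change 0.18, interval -0.04 to 0.41). The chaperones thus had no common side, with 2 of 4 below 0.

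The tissue variants were dim. Psma8, the alpha subunit of the testis, was detected on all arrays between -4.90 and -3.77. It stood at -4.64 and -4.79 in numbered controls, -4.17 and -4.32 in numbered KO, -4.42 and -4.73 in lettered controls, and -4.90 and -4.74 in lettered KO, so the changes had opposite signs (0.47 and -0.25, mean 0.11, adjusted p = 0.715). Psmb11 was not well above background on any numbered Derlin-1 array, where it lay between -8.10 and -7.42. In the lettered series it was well above background on both untreated KO arrays (-5.42 and -4.55) and not on the untreated controls (-8.17 and -8.35) or on any array with 4PBA. The lettered KO mean was -4.99 and the measured control mean -8.26. That KO mean was 2.14-fold above the mean of the lowest signals of any probe well above background on those control arrays. The fold sets the KO signal against a detection limit and supports no difference. Psmb11 passed the detection filter only through these lettered KO arrays, so its p-values in comparisons with them support no difference, and elsewhere its levels are given without a fitted change. The remaining array with Psmb11 above background was Derlin-2 control vehicle 2, at -4.11, while its fellow array stood at -7.60.

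Among 31 tested genes that work with the proteasome, 3 passed in Derlin-1 KO without 4PBA, 2 higher and 1 lower, a share of 9.68% that is near the 10.6% of all genes. Nfe2l1 stood at 3.24 and 3.25 in numbered controls, 3.47 and 3.41 in numbered KO, 3.33 and 3.11 in lettered controls, and 3.60 and 3.55 in lettered KO. It rose by 0.27 (SE 0.07, adjusted p = 0.0252), with every KO array above both controls of its series. Of the 8 fits that left out 1 array, the call held in 2, those without lettered control a and without lettered KO b (0.22 to 0.33 over the 8, adjusted p 0.0249 to 0.0910), and it held in neither series alone. Vcp, the extraction ATPase, stood at 5.58 and 5.54, 5.22 and 5.08, 4.89 and 4.85, and 4.45 and 4.56 in the same order, and fell by 0.39 (SE 0.07, adjusted p = 0.0064). It was called in all 8 fits that left out 1 array, in neither series alone, and not as the mean of its probes (-0.15, adjusted p = 0.137). Ufd1, a cofactor of VCP, stood at 1.84 and 1.84, 1.98 and 2.01, 1.65 and 1.57, and 2.11 and 1.88, and rose by 0.27 (SE 0.07, adjusted p = 0.0263), a call that held in 1 of the 8 such fits, without lettered KO b (0.22 to 0.33 over the 8, adjusted p 0.0109 to 0.119). Vcp and its cofactor were thus called on opposite sides.

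Pomp, the maturation factor of the core particle, stood at 5.37 and 5.35 in numbered controls, 5.27 and 5.24 in numbered KO, 5.18 and 5.12 in lettered controls, and 4.85 and 5.05 in lettered KO. Its groups did not overlap, but the change of -0.15 (SE 0.06) was not called (adjusted p = 0.141). The ubiquitin gene Ubb stood at 7.89 and 7.98, 7.83 and 7.81, 8.21 and 8.02, and 7.72 and 7.92 in the same order (change -0.20, SE 0.08, adjusted p = 0.117), and its groups were apart. The deubiquitinase Uchl5, named after its values were seen, was apart on the other side, at 2.26 and 2.16, 2.54 and 2.38, 2.26 and 2.34, and 2.38 and 2.51 (change 0.20, SE 0.08, adjusted p = 0.135). Of all genes 12.4% were apart on the lower and 11.4% on the higher side. The ubiquitin receptor Adrm1 lay between 2.37 and 2.50 in the numbered and between 2.27 and 2.37 in the lettered arrays (change -0.02, interval -0.12 to 0.09). Usp14, also a deubiquitinase, lay between 2.84 and 3.02 and between 2.58 and 2.84 (change -0.04, interval -0.21 to 0.14). Of the 31 genes, 15 lay above 0, and their median was -0.02. In the 7 other comparisons of KO with control or of 4PBA with its absence, 0 of the 31 were called, against 0.0295% to 0.136% of all genes. Nfe2l1 lay at 0.13 in Derlin-1 KO under 4PBA (adjusted p = 0.465), or 0.19 without the doubted KO 4PBA array b. In Derlin-2 KO it lay at -0.16 with vehicle (adjusted p = 0.756), or -0.19 without the doubted KO vehicle array 1, and at -0.09 under 4PBA. The effects on Nfe2l1 in the lines differed by 0.43 without 4PBA (SE 0.12), which was not called (adjusted p = 0.164).

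The values of the members lay further from 0 in the lettered than in the numbered series, a difference that was not tested. In the numbered series 27 of 45 members lay below 0 (median -0.01), and in the lettered series 35 did (median -0.13). On the same slides all genes had medians of 0.01 and -0.02. A total of 24 members lay below 0 in both series and 7 above 0 in both. The lettered control arrays were unequal: array a exceeded array b in 41 of 45 members without 4PBA (median difference 0.21) and in 40 with 4PBA (0.24), while all genes had median differences of 0.10 and 0.09. Without lettered untreated control a, the median of the members was -0.02 with 28 below 0, and that of the 14 core subunits was -0.07, all still below 0. Over all fits that left out 1 array, the members' median ranged from -0.12 to -0.02, with 28 to 34 below 0.

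**Figure D3:**
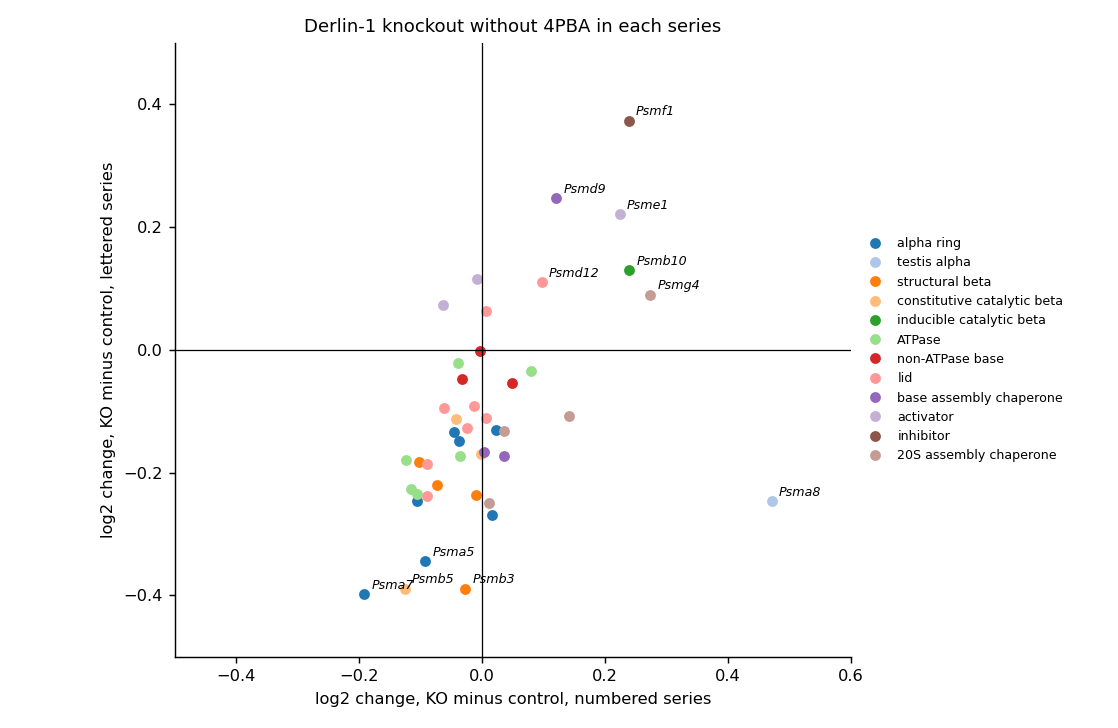
Log2 change (KO minus control, without 4PBA) of 44 proteasome genes in the numbered series against the lettered series, coloured by role, with Psmb11 left out. Most points lie in the lower part, at lettered values down to -0.40 for Psma7, while Psmf1, Psme1, Psmb10, Psmd9, Psmg4, Psmd11 and Psmd12 lie above 0 in both series.

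**Figure D4:**
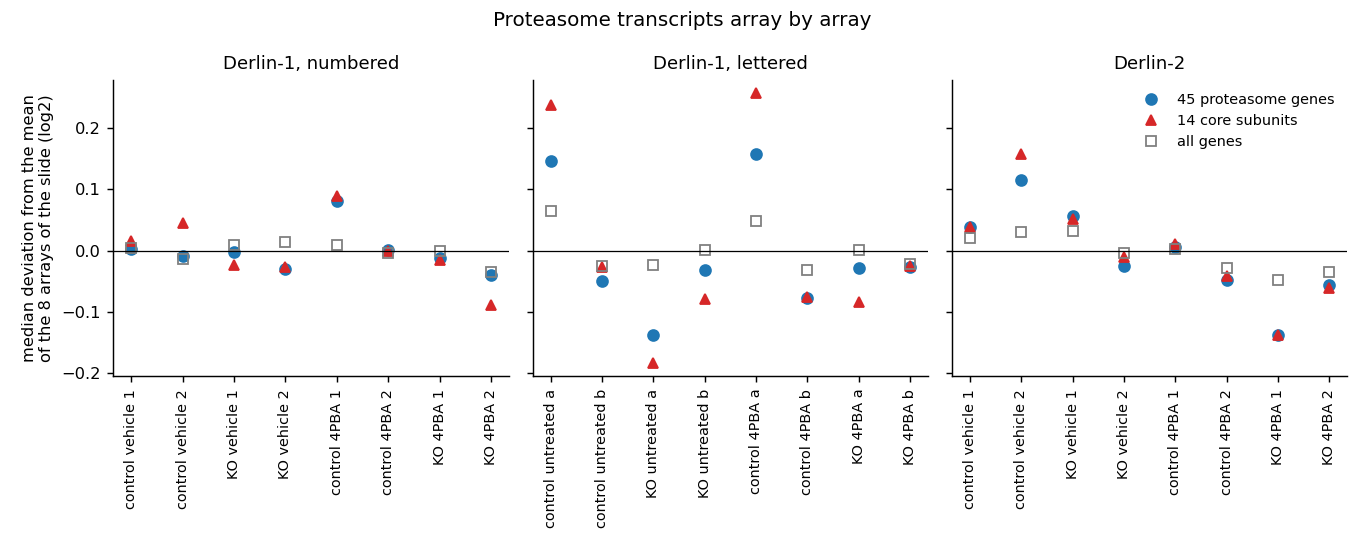
Median deviation of each array from the mean of the 8 arrays of its slide (log2), for the 45 proteasome genes, the 14 constitutive core subunits and all genes tested. The lettered control arrays a stand highest, with core medians of 0.24 without and 0.26 with 4PBA, and the numbered arrays lie within 0.09 of 0.

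The shift also went with the brightness of the probes. Of the 45 members 32 were among the brightest 4234 genes by mean signal, where the median change of all genes in Derlin-1 KO without 4PBA was -0.09, with 70.4% below 0. The 32 members there had a median of -0.09, with 28 below 0. Among the dimmest 4234 genes and the 4234 next above them, the medians of all genes were 0.10 and 0.04. The 2 and 3 members there all lay above 0. When arrays were quantile-normalized, the median of the 45 members was -0.00 with 24 below 0, while 12 of the 14 core subunits still lay below 0 (median -0.06).

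**Figure D5:**
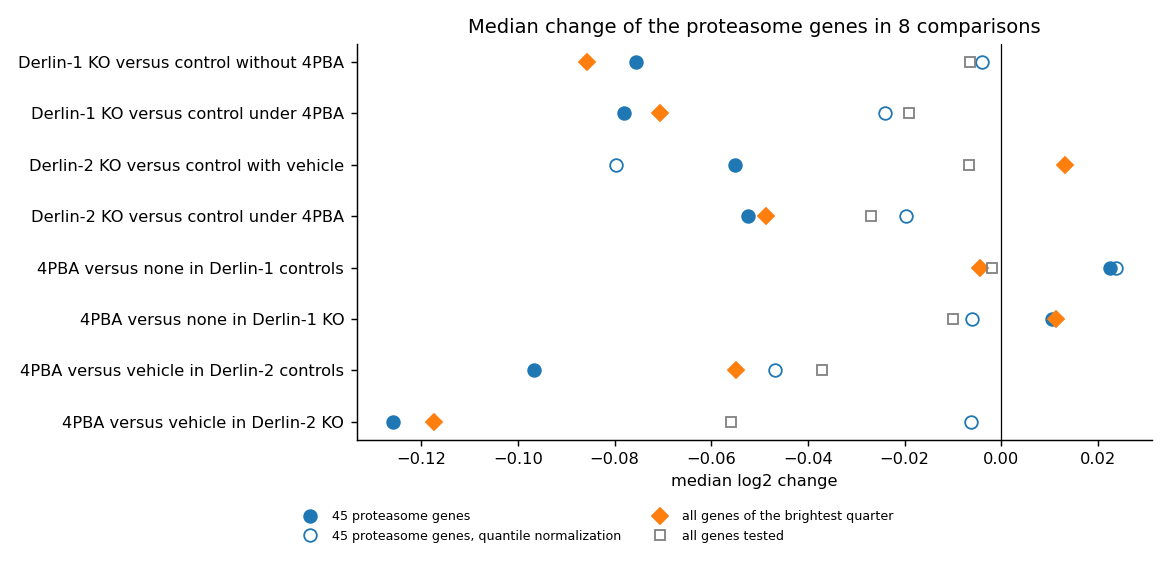
Median log2 change in 8 comparisons for the 45 proteasome genes (filled circles), the same genes after quantile normalization (open circles), the brightest 4234 genes (diamonds) and all genes tested (squares). The proteasome median lies nearest to 0 in the 4PBA comparisons of the Derlin-1 line and farthest in the comparison of 4PBA with vehicle in Derlin-2 KO (-0.13), where quantile normalization gives -0.01.

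Under 4PBA, no member was called between Derlin-1 KO and control (0 of 45 by limma, against 0.0472% of all genes; none at an unadjusted p under 0.05, against 12.8%). Values again lay mostly below 0, in 37 of 45 members, with a median of -0.08 against -0.02 for all genes, and in all 14 constitutive core subunits (median -0.13). Without lettered 4PBA control a, 27 members (median -0.02) and 11 core subunits lay below 0, and after quantile normalization 28 members (median -0.02) and 12 core subunits did. The KO arrays lay under both controls in each series for 2 members, Psma1 and Psmc4 (4.44%, near the 3.96% of all genes), and over both for 0 (2.53% of all genes). Psma7 had the smallest p. It stood at 4.68 and 4.60 in numbered controls, 4.48 and 4.44 in numbered KO, 4.83 and 4.19 in lettered controls, and 4.12 and 4.28 in lettered KO (change -0.24, SE 0.12, adjusted p = 0.424). Psma1 stood at 3.30 and 3.23, 3.23 and 3.05, 3.82 and 3.57, and 3.55 and 3.55 in the same order (change -0.14, SE 0.07, adjusted p = 0.429). For Psma7 the lettered groups overlapped, since control b stood between the KO arrays, and for Psma1 the lower control of each series stood close to the higher KO array. Over the alternative settings given below, Psma7 ranged from -0.40 to -0.08 and Psma1 from -0.20 to -0.08. Psmf1, at 0.31 without 4PBA, lay at 0.01 (interval -0.23 to 0.26), and Psme1 and Psmb10 at 0.08 each. On lettered KO arrays a and b, Psmf1 stood at 0.91 and 0.70, Psme1 at 2.21 and 1.80, and Psmb10 at 3.12 and 2.74. All 3 values were therefore lower with the doubted array b than without it. With the doubted KO 4PBA array b left out, 33 members and 13 core subunits lay below 0 (members' median -0.07), and Psma7 lay at -0.28 and Psma1 at -0.14. No member was called there either, while 6.18% of all genes were. The interferon response genes had mean levels between -2.05 and -1.36 on these controls and between -1.73 and -0.14 on these KO arrays. The Derlin-1 effect itself was not found to differ with 4PBA for any member (0 called, against 0.0118% of genes, and 1 at an unadjusted p under 0.05, or 2.22% against 2.67%), the 1 being Psmb11, through the lettered untreated KO arrays. For Psmf1 the difference was -0.29 (SE 0.16, interval -0.64 to 0.05), and -0.24 without the doubted KO 4PBA array b. It ranged from -0.46 to -0.13 over the alternative settings. Of these differences 25 lay below 0, 28 without the doubted array, 9 without lettered 4PBA control a and 38 without control b.

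Loss of Derlin-2 gave the same absence of calls. With vehicle 0 of 45 members were called by limma, against 0.118% of all genes, with a median of -0.06 and 33 below 0, where all genes had a median of -0.01 and the brightest 4234 genes 0.01. At an unadjusted p under 0.05 there was 1 member (2.22%, against 8% of all genes). It was Psmb11, through a single control array at -4.11, the other control array (-7.60) and the KO arrays (-8.08 and -8.40) not being above background. Psme3 came next, at -0.03 and -0.01 in controls and -0.15 and -0.24 in KO (change -0.17, SE 0.09, adjusted p = 0.682). Psmb10 lay at -0.21 (interval -0.54 to 0.13), Psme1 at -0.13 (interval -0.50 to 0.23) and Psmf1 at 0.02 (interval -0.33 to 0.36). With the doubted KO vehicle array 1 left out, 35 members lay below 0 (median -0.09), and Psme3 lay at -0.21. No member was called, against 0.487% of all genes. Without control vehicle 2 the median was -0.00 with 23 below 0, and of the 14 core subunits 6 lay below 0, against 12 with all arrays.

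Under 4PBA 0 of 45 members were called between Derlin-2 KO and control by limma (none at an unadjusted p under 0.05, against 4.7% of all genes), against 0.136% of all genes called, with a median of -0.05 and 37 below 0. All genes had a median of -0.03 with 58.0% below 0, and the brightest 4234 genes had -0.05 with 71.1%. Psma3 had the smallest p, at 4.82 and 4.23 in controls and 4.24 and 4.19 in KO. One control array stood apart, and the change of -0.31 (SE 0.15) had an adjusted p of 0.9998. Psmb2 stood at 0.33 and 0.23 in controls and at 0.01 and 0.06 in KO. Its groups did not overlap, but the change of -0.25 (SE 0.12) likewise was not called (adjusted p = 0.9998). How many of all genes were apart in comparisons of the Derlin-2 line was not counted. Psmb5, Psmb6 and Psmb7 lay at -0.15, -0.02 and 0.01. The Derlin-2 effect was not found to differ between 4PBA and vehicle for any member (0 called, against 0.0768% of genes, and 2 at an unadjusted p under 0.05, or 4.44% against 5.15%). The 2 were Psme3, described with the effects of 4PBA, and Psmb11, above background on a single array of the line. Below 0 lay 28 members (median -0.03), 22 without the doubted KO vehicle array 1, where the median turned to 0.02, and 16 without KO 4PBA array 1, where it turned to 0.04.

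Injection of 4PBA was not followed by a called change in any proteasome gene. In Derlin-1 controls 0 of 45 were called (none at an unadjusted p under 0.05, against 2.1% of all genes), against 0.0295% of all genes called, with a median of 0.02 and 13 below 0. That count ran from 3, without lettered 4PBA control b, to 34, without lettered 4PBA control a. Psma1 had the smallest p there, at 3.10 and 3.12 without and 3.30 and 3.23 with 4PBA in the numbered series, and at 3.55 and 3.57 without and 3.82 and 3.57 with 4PBA in the lettered series (change 0.15, SE 0.07, adjusted p = 0.9999). Psmd5, a chaperone of base assembly, stood at 0.20 and 0.16 without and 0.44 and 0.24 with 4PBA in the numbered, and at 0.99 and 0.79 without and 1.13 and 0.79 with 4PBA in the lettered series (change 0.12, SE 0.08). The arrays with 4PBA were the higher ones in the numbered series for both genes. In Derlin-1 KO 0 were called, against 0.0354% of genes, with 3 at an unadjusted p under 0.05 (6.67%, the share of all genes being 6.66%) and a median of 0.01, where all genes had -0.01. These were Psme3 and Psmf1 (-0.29, SE 0.11), both with an adjusted p of 0.734, and Psmb11. Psmb11 was above background on the lettered untreated KO arrays and on none of the others. Psmf1 was called when untreated KO b was left out (-0.45, adjusted p = 0.0414, with 0.555% of all genes called) and lay at -0.12 when untreated KO a was (adjusted p = 0.9999). With the doubted KO 4PBA array b left out, the median was 0.00 with 20 below 0, against 19, and no member was called (0.0591% of all genes).

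In the Derlin-2 line most members lay lower with 4PBA than with vehicle in both genotypes, without a call. In controls 0 of 45 were called, against 0.13% of genes, with 1 at an unadjusted p under 0.05 (2.22%, against 5.16% of all genes), 42 below 0 and a median of -0.10, where all genes had -0.04. Psma8 stood at -4.18 and -3.95 with vehicle and -4.31 and -4.87 with 4PBA (change -0.53, SE 0.23, adjusted p = 0.934), and Psmb11 at -7.60 and -4.11 with vehicle and -7.43 and -7.05 with 4PBA. Psmb11 was well above background on a single one of these arrays. In KO 0 were called, against 0.136% of genes, with 5 at an unadjusted p under 0.05 (11.1%, against 9.21% of all genes), 40 below 0 and a median of -0.13, where all genes had -0.06. Besides Psme3 these were Psmd1, the structural subunit Psmb2, the deubiquitinase Psmd14 (each below 0) and the chaperone Psmg2 (-0.24). Psmd1 stood at 4.05 and 4.10 with vehicle and 3.80 and 3.85 with 4PBA, a change of -0.25 (SE 0.08, adjusted p = 0.334). Its pairs were well apart in KO and lay close together in controls (3.97 and 4.02 against 3.96 and 3.94). The brightest 4234 genes had medians of -0.05 and -0.12 in these comparisons, and quantile normalization gave members' medians of -0.05 in controls and -0.01 in KO. With the doubted KO vehicle array 1 left out, 31 members lay below 0 in KO (median -0.06), Psmd1 lay at -0.27, and no member was called (0.487% of all genes).

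Psme3 lay above 0 under 4PBA in the KO of both lines. With 4PBA its level in KO was higher on all 3 slides: 0.22 and 0.20 against 0.04 and 0.09 in the numbered series, -0.43 and -0.35 against -0.50 and -0.66 in the lettered series, and 0.14 and 0.06 against -0.15 and -0.24 in the Derlin-2 line. The changes were 0.17 (SE 0.06, adjusted p = 0.734) in Derlin-1 KO and 0.29 (SE 0.09, interval 0.10 to 0.48, adjusted p = 0.334) in Derlin-2 KO, so neither was called. Without the doubted arrays, KO 4PBA b of the lettered series and KO vehicle 1 of the Derlin-2 line, they were 0.15 and 0.33, and the Derlin-2 difference given next was 0.37 (adjusted p = 0.639). Psme3 is singled out here because it had the smallest or next smallest p in both comparisons. How many of all genes were apart in the same way on all 3 slides was not counted. In controls the changes were 0.06 (SE 0.06) and -0.04 (SE 0.09). The difference of the KO effect between 4PBA and the arrays without it was 0.11 (SE 0.09, adjusted p = 0.9992) in the Derlin-1 and 0.33 (SE 0.13, adjusted p = 0.893) in the Derlin-2 line.

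Set against each other, the Derlin-1 and Derlin-2 effects were not found to differ for any member, either without 4PBA (0 called by limma, against 0.065% of genes, and 1 at an unadjusted p under 0.05, or 2.22% against 14%) or under 4PBA (0 called, against 0.065%, and none at an unadjusted p under 0.05, against 4.12%). The 1 without 4PBA was Psmb11, through the lettered KO arrays and a single Derlin-2 control array. Psmb10 came next, at 0.39 (SE 0.19, interval -0.03 to 0.81), being 0.18 in Derlin-1 and -0.21 in Derlin-2 KO, and the difference was 0.46 without the doubted KO vehicle array 1. Under 4PBA the smallest p-values were those of Psma3 (0.31, SE 0.18) and Psmb10 (0.25, SE 0.19), both with an adjusted p of 0.9997. These differences were 0.34 and 0.35 without the doubted KO 4PBA array b. Over the alternative settings they ranged from 0.01 to 0.60 and from 0.13 to 0.38. For Psma3, 1 Derlin-2 control array with 4PBA stood apart (4.82 against 4.23). The median difference over the 45 members was -0.03 without 4PBA (25 below 0), and 0.01 without the doubted KO vehicle array 1. It was -0.01 under 4PBA, also without the doubted KO 4PBA array b. After quantile normalization the medians were 0.07 without 4PBA (12 below 0) and 0.02 under 4PBA (22 below 0). With single arrays left out, the sign of the median turned in both, over a range from -0.07 to 0.01 without and from -0.06 to 0.05 under 4PBA. The intervals of 36 and 41 members lay within a 1.5-fold difference.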

How the data were processed

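Intensities were read with Agilent Feature Extraction, version 10.7.1.1 per the submitters' processing notes; the deposited processed signal is a linear intensity after background correction by the authors, per the file headers, with no normalization between arrays recorded. The series table held the same intensity at probes with 1 spot. Control spots were left out and outlier spots set to missing. The 75th percentile of each array's log2 intensity was subtracted, spots of a probe were averaged, and probes well above background on both arrays of a group were kept. Genes were named through the RefSeq table by transcript accession, which gave 32994 of 56605 probes a symbol. All 24 arrays entered 1 limma model (version 3.58.1, R 4.3.3, data.table version 1.17.8) with 12 group means, 12 residual df and 2.13 prior df; tests were two-sided, with Benjamini-Hochberg adjustment over all genes and calls at 0.05. The code was tested on simulated data. Precision is limited by having 2 arrays per group.

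Members and lists were chosen with earlier results of these data known. Array values were given for the fixed set of catalytic, activator, inhibitor, core chaperone and tissue-variant members, for any member called and otherwise the 2 with the smallest p in each other comparison, and for called and selected partner genes, 1 of which is not reported here; other members named were chosen after their values were seen. Alternatives were normexp on the median signal (the files used here held no mean signal), quantile and median scaling, other filters, outlier spots kept, means over probes, a replicate block, each series alone and each array left out. The count of core subunits below 0 was added after seeing the data.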

Additional observations from a re-analysis of the deposited data

How the results depend on the processing

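Of the recomputed counts of called members, 192 equalled the count given and 10 did not. In Derlin-1 KO without 4PBA the count of 0 became 2 with the replicate block (Psmb11 and Psmf1, with 12.9% of all genes called), 1 in the lettered series alone (Psmb11, 3.54%) and 0 to 3 when single arrays were left out: Psma7 without untreated control b (8.72%), and Psma5, Psmc2 and Psmf1 without untreated KO b (16.5%). It ranged from 0 to 1 for Derlin-2 KO with vehicle, 4PBA in Derlin-1 KO, 4PBA in Derlin-2 controls, the Derlin-2 difference by 4PBA and the difference of both lines without 4PBA. The call was Psmf1 in Derlin-1 KO (without untreated KO b, 0.555% of all genes) and Psmb11 in the others (0.13% to 0.308%), in all of them without Derlin-2 control vehicle 1 and in the last also without control vehicle 2. Quantile normalization moved medians to -0.00406 (Derlin-1 KO without 4PBA), -0.0469 and -0.00632 (4PBA in Derlin-2 controls and KO), 0.0303 (the Derlin-2 difference) and 0.0691 (the difference of both lines). The mean over probes gave -0.0818 for 4PBA in Derlin-2 KO, and the lettered series alone 0.0506 for 4PBA in Derlin-1 KO. With single arrays left out, medians ranged from -0.0928 to -0.00298 (Derlin-2 KO, vehicle), -0.112 to -0.0253 (Derlin-2 KO, 4PBA), -0.168 to -0.0644 (4PBA in Derlin-2 KO) and -0.0643 to 0.0371 (the Derlin-2 difference), and the core subunits below 0 from 6 to 13 (Derlin-2 KO, vehicle). Arrays of the same number or letter correlated between -0.15 and 0.40 in their deviations, which does not pair them, and the replicate block moved no other count. Where 1 array of a group was left, it was assumed to vary like the other groups. Psmb11 was not above background on 21 arrays, so changes against them are no measured sizes and its calls support no difference. The cause of these changes was not tested.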
